A study of Mus musculus with 2 samples.

Results

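The glutathione, glucuronic acid and sulfate transferases were taken as the protein-coding genes whose symbols begin with Gsta, Gstk, Gstm, Gsto, Gstp, Gstt, Gstz, Mgst, Ugt1, Ugt2, Ugt3 or Sult followed by their number. The annotation held 67 such symbols, and 66 of them matched a row in both gene tables, out of 43346 mouse genes. Ugt2a1 matched no row and was not analysed here. The 66 genes comprised 22 soluble glutathione transferases, 3 membrane glutathione transferases, 20 UDP-glucuronosyltransferases and 21 cytosolic sulfotransferases. The tissue was adrenal gland from C57BL/6J mice aged 8 weeks, from littermates that the labels describe as mixed in sex. There was 1 group with 2 stranded poly(A) RNA libraries, labelled biological replicates 1 and 2. They carry 1 shared donor identifier, although their Y-linked counts differ. The spread between them may be technical in part and may include a difference in sex.

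These enzymes make small molecules more soluble or less reactive by attaching a polar group to them. Glutathione transferases use the tripeptide glutathione and also reduce lipid peroxides, UDP-glucuronosyltransferases in the endoplasmic reticulum use UDP-glucuronic acid, and cytosolic sulfotransferases use the donor PAPS. In a gland that makes steroids with mitochondrial P450 enzymes, oxidised lipids are substrates for the first group, and steroid hormones are substrates for members of the other groups.

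Expected counts, the deposited estimates of read pairs per gene, summed over mouse genes to 47615328 in replicate 1 and 52890686 in replicate 2. The 7 adrenal cortex markers and the 6 chromaffin cell markers were all at 1 TPM or more in both libraries, where TPM is a level per transcript length on a fixed total. The libraries were not equal in other tissue markers. Summed adipocyte markers were at 12180 TPM in replicate 1 and 5223 in replicate 2. Of these, Cfd alone gave 9884 and 3984 TPM, and only Lep of the 6 was higher in replicate 2, at 7.74 and 11.8 TPM. Stomach and gut markers summed to 45.7 and 2.23 TPM, and hepatocyte markers to 6.62 and 45.1 TPM. Exocrine pancreas markers summed to 55.0 and 3.12 TPM, of which Clps alone gave 53.4 and 1.63, and 3 of the other 6 (Cela3b, Prss2 and Pnlip) had more TPM in replicate 2. None of the 6 kidney tubule markers reached 1 TPM in both, and Kap and Slc12a1 had 0 counts. Counts of Xist were 3401 and 8376. The Y-linked Kdm5d, Eif2s3y, Ddx3y and Uty had 221, 79, 32 and 26 counts in replicate 1 and 0 in replicate 2. Sex make-up thus differed between the libraries and cannot be told apart from replicate in the comparisons below.

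Glutathione transferases carried nearly all of the transcript of these 66 genes. Together the genes held 0.311% of the TPM of all mouse genes, without spike-ins, in replicate 1 and 0.380% in replicate 2. Soluble glutathione transferases held 0.174% and 0.166% (0.170% ± 0.0055, SD, n = 2), and the 3 membrane enzymes held 0.129% and 0.206% (0.167% ± 0.055, SD, n = 2). Sulfotransferases held 0.00619% and 0.00560%, and UDP-glucuronosyltransferases 0.00216% and 0.00260%. The order of the latter families was the same in both libraries, while membrane and soluble glutathione transferases changed places between them in TPM. By expected counts, which are not per length, the soluble enzymes led in both, with 49554 against 25330 and 50729 against 42486. Since this is bulk tissue, fewer cells of a type and less RNA per cell cannot be told apart.

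At the threshold of 1 TPM in both libraries, 25 of the 66 genes (37.9%) were detected, against 11718 of 21474 protein-coding genes (54.6%). All 3 membrane enzymes and 15 of 22 soluble glutathione transferases were detected, but only 3 of 20 UDP-glucuronosyltransferases and 4 of 21 sulfotransferases. At the other end, 24 genes (36.4%) had 0 counts in both libraries, against 23.4% of protein-coding genes. These 24 comprised 17 sulfotransferases and 7 UDP-glucuronosyltransferases. Another 12 genes had counts but fewer than 20 in all, and 5 genes with at least 20 summed counts fell below 1 TPM in a library. The 2 leading genes, Mgst1 and Gstm1, held 56.4% of the summed TPM of the 66 genes in replicate 1 and 61.8% in replicate 2, and the leading 5 held 84.8% and 86.9%.

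**Figure D1:**
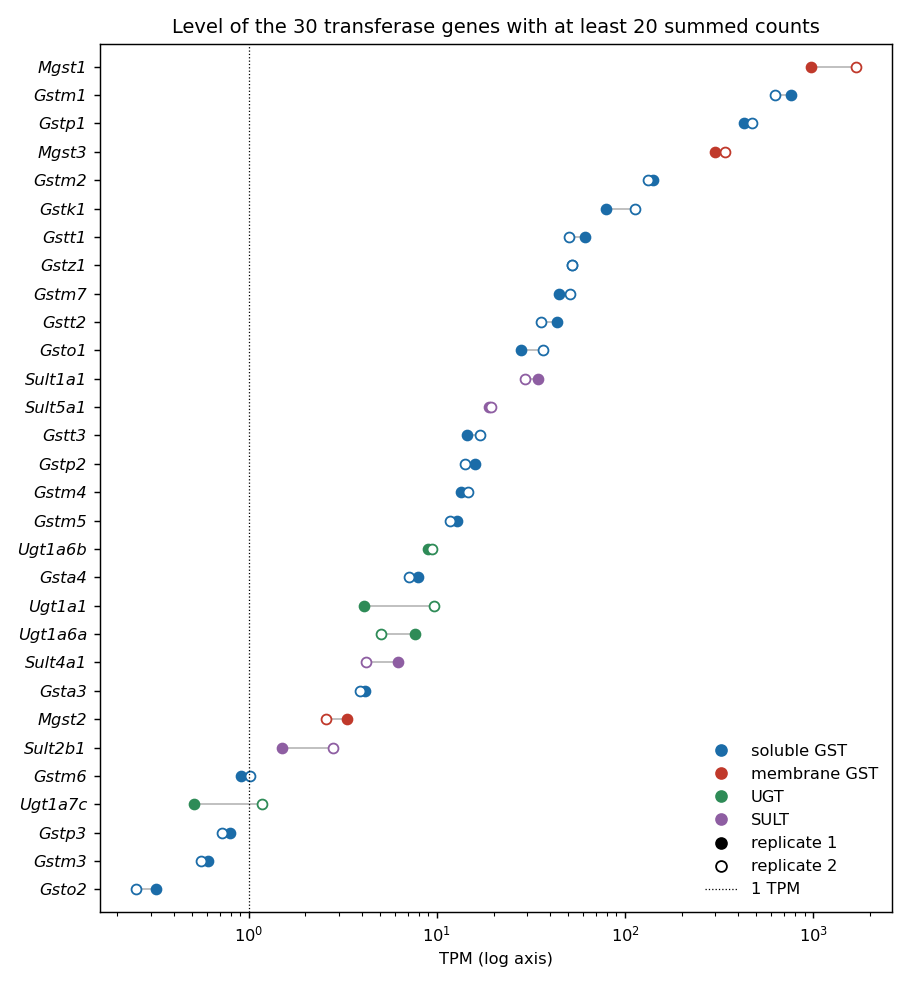
TPM (log axis) of the 30 genes with at least 20 summed counts in replicate 1 (filled points) and replicate 2 (open points), coloured by family, with 1 TPM dotted. Mgst1 stands highest at 969 and 1699 TPM, glutathione transferases fill the 11 highest places by mean TPM, and no UDP-glucuronosyltransferase reaches 10 TPM.

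Mgst1 was the most abundant of the transferases. It encodes a small membrane protein of the endoplasmic reticulum and outer mitochondrial membrane that conjugates glutathione and reduces lipid hydroperoxides. The gene (ENSMUSG00000008540.7) lies on mm10 chromosome 6, 138140316 to 138156755, plus strand. Replicate 1 had 969 TPM and replicate 2 had 1699 TPM, from 15854 and 30857 expected counts, and its mean ranked 82nd among protein-coding genes. Replicate 2 was the higher library, and Mgst1 exceeded Gstm1 1.27-fold in replicate 1 and 2.71-fold in replicate 2. Of its 7 annotated transcripts, the 4 that start between 138140316 and 138140599 held 99.99% and 99.8% of its TPM. The 3 that start further downstream, from 138141370 on, held 0.0072% and 0.164%. The leading transcript, Mgst1-204, held 70.0% and 67.4% of the gene's TPM.

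Mgst3 and Mgst2 belong to the same membrane family as Mgst1, together with leukotriene C4 synthase. Mgst3 (chromosome 1, 167371966 to 167393841, minus strand) was at 299 and 340 TPM. Mgst2 was at 3.33 and 2.56 TPM, so Mgst3 exceeded it 89.8-fold and 133-fold. The coding sequence of Mgst1 shared 43.5% of aligned positions with that of Mgst3 and 41.5% with that of Mgst2, and Mgst1, Mgst2 and Mgst3 shared no 76-base window, the read length, with any gene. The level of Mgst2 rested on its transcripts in another way. A transcript with a retained intron, Mgst2-205, held 63.2% of its expected counts in replicate 1 and 86.5% in replicate 2, but 21.1% and 50.4% of its TPM. Counts of Mgst2 were 101 and 145, higher in replicate 2, while its TPM was higher in replicate 1.

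Mu-class enzymes, the most abundant soluble class, summed to 978 TPM in the first replicate and 838 TPM in the other. Their 7 genes lie side by side on chromosome 3, from 107895821 to 108044894, in the order Gstm5, Gstm7, Gstm6, Gstm3, Gstm2, Gstm1 and Gstm4. Gstm1 (ENSMUSG00000058135.8, 108012255 to 108017973, minus strand), the main mu enzyme, was at 764 and 627 TPM. Its neighbour Gstm2 was at 141 and 132 TPM, and Gstm7 at 44.6 and 50.8 TPM. Gstm4 stood at 13.4 and 14.6 TPM and Gstm5 at 12.8 and 11.8 TPM. Gstm6 (0.91 and 1.01 TPM) and Gstm3 (0.61 and 0.56 TPM) did not reach the threshold in both libraries. Gstm1 thus exceeded Gstm3 1252-fold and 1119-fold, although their coding sequences were identical at 89.5% of aligned positions, more than the 85.9% between Gstm1 and Gstm2. The stretch of the coding sequence from base 562 to base 651 is shown because it is where Gstm1 and Gstm2 differ most (22 of 90 bases). Capitals mark bases that differ among these 3 genes.
Gstm1: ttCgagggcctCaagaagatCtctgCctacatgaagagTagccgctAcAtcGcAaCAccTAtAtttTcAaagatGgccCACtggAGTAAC
Gstm2: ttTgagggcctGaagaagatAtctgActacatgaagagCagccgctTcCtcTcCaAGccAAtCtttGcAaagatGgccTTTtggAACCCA
Gstm3: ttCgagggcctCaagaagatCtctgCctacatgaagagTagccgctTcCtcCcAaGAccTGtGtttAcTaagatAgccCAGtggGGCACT

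Pi-class enzymes were represented mainly by Gstp1, which stands next to its near copy Gstp2 and to Gstp3 on chromosome 19, 4035407 to 4059569. Gstp1 (ENSMUSG00000060803.5) was at 431 and 475 TPM, Gstp2 at 15.8 and 14.1 TPM, and Gstp3 at 0.79 and 0.72 TPM. The coding sequences of Gstp1 and Gstp2 have 630 bases each and differ at 12 of them (98.1% identity), with a longest identical run of 300 bases. Gstp1 and Gstp3 were identical at 72.7% of aligned positions. The first 90 coding bases hold 6 of the 12 differences and show what separates reads of these genes. Capitals mark the 15 positions at which any of these genes differs.
Gstp1: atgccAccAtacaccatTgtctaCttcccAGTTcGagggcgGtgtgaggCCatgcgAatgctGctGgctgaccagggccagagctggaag
Gstp2: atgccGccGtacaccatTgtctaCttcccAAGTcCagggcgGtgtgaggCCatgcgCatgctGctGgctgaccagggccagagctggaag
Gstp3: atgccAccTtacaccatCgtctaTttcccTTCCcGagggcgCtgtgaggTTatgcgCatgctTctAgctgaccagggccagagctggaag
The deposited posterior SD, the error of splitting shared reads, was 0.440% and 0.594% of the posterior mean count for Gstp1, against 7.32% and 8.46% for Gstp2. Gstp1 exceeded Gstp2 27.2-fold in replicate 1 and 33.6-fold in replicate 2, so the level of Gstp2 depends on that split more than the level of Gstp1 does.

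The remaining soluble classes were each led by a gene of moderate level. Gstk1, the kappa enzyme of mitochondria and peroxisomes, was at 79.3 and 113 TPM, higher in replicate 2. Gstz1, the zeta enzyme that isomerises maleylacetoacetate in tyrosine breakdown, was nearly equal in both libraries at 52.3 and 52.1 TPM. Gsto1, an omega enzyme that reduces dehydroascorbate, was at 28.0 and 36.5 TPM, and its neighbour Gsto2 at 0.32 and 0.25 TPM. Of the theta enzymes, which act on small halogenated compounds, Gstt1 was at 61.5 and 50.6 TPM, Gstt2 at 43.4 and 35.6 TPM, and Gstt3 at 14.5 and 16.9 TPM. The theta gene between them on chromosome 10, Gstt4, had 0 and 2 counts.

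Alpha-class enzymes were the low class among the detected ones. Gsta4, which conjugates the lipid peroxidation product 4-hydroxynonenal, was at 7.89 and 7.06 TPM. Gsta3, whose human counterpart isomerises steroid intermediates, was at 4.15 and 3.92 TPM. Gsta1 and Gsta2 had 3 and 2 counts over both libraries. Their coding sequences were identical at 97.6% of aligned positions, and their deposited counts were whole numbers with a posterior SD of 0. Gstm1 exceeded Gsta4 96.8-fold and 88.8-fold.

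**Figure D2:**
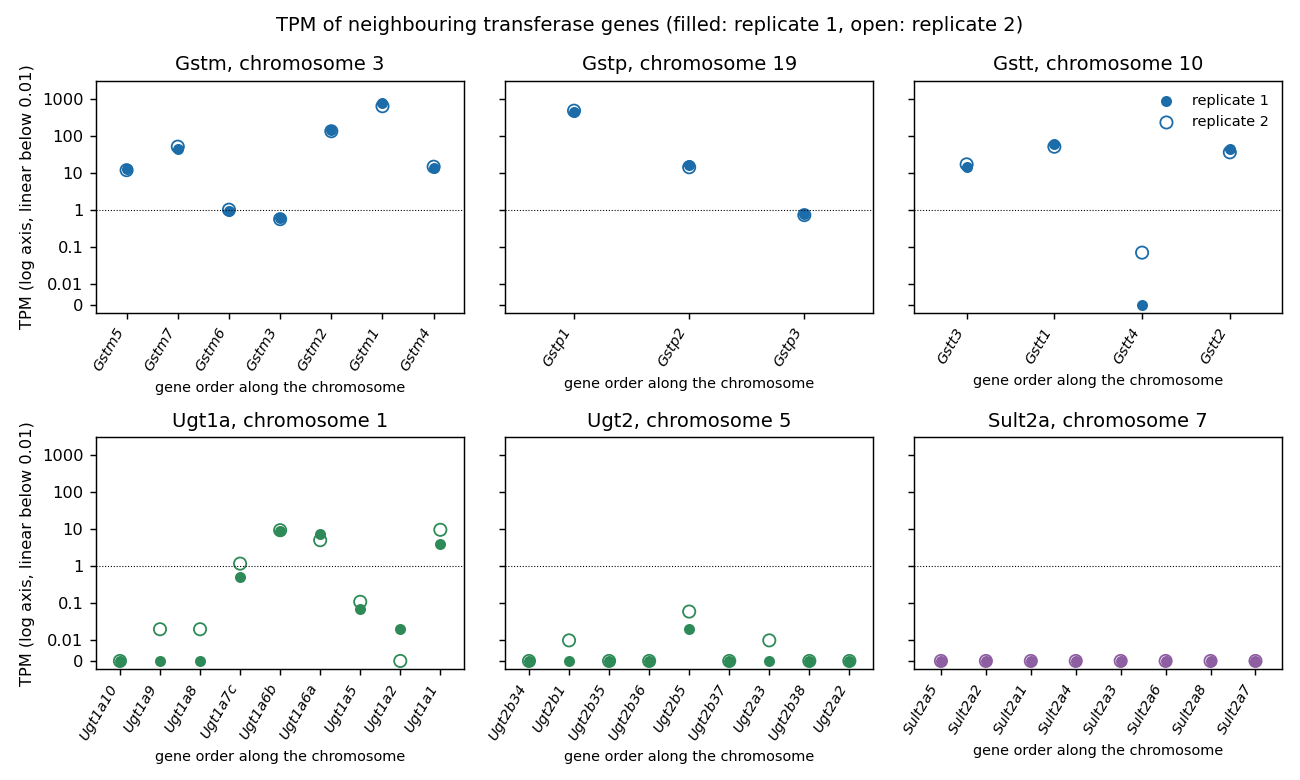
TPM (log axis, linear below 0.01) of genes in 6 chromosomal clusters, in their order along the chromosome, in replicate 1 (filled) and replicate 2 (open), with 1 TPM dotted. Levels of direct neighbours differ widely in the Gstm, Gstp and Gstt clusters, 3 of 9 Ugt1a genes pass 1 TPM in both libraries, and the 8 Sult2a genes are all at 0.

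Among UDP-glucuronosyltransferases, transcripts came from the Ugt1a locus. This locus on chromosome 1 (88055388 to 88220002) is built of alternative first exons, 1 for each enzyme, that are joined to common last exons, so its 9 genes share much of their sequence. Ugt1a6b was at 8.96 TPM in replicate 1 and 9.42 in replicate 2, and Ugt1a6a, like it an enzyme of planar phenols, at 7.67 and 5.06. Ugt1a1, the enzyme that conjugates bilirubin, was at 4.07 and 9.67 TPM. Ugt1a7c was at 0.51 and 1.18 TPM from 33.2 and 41.1 counts. The remaining Ugt1a genes, Ugt1a5, Ugt1a2, Ugt1a8, Ugt1a9 and Ugt1a10, had at most 8.19 counts in a library. The 9 genes of the Ugt2 cluster on chromosome 5 (86889767 to 87482260), whose Ugt2b enzymes conjugate steroids among other substrates, had 1 count in replicate 1 and 6 in replicate 2 in all. Ugt3a2 had 1 and 11 counts, and Ugt3a1 had 0 and 2.

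Reads of Ugt1a6a and Ugt1a6b are separated by few bases. Their coding sequences have 1593 bases each and differ at 26 (98.4% identity), with a longest identical run of 774 bases. The stretch from base 271 to base 360 holds 13 of these differences, in capitals.
Ugt1a6a: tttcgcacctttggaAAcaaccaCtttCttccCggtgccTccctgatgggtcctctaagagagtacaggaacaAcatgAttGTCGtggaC
Ugt1a6b: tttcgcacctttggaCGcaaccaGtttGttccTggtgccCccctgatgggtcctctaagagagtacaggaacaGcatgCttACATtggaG
Of all 76-base windows in their transcripts, 51.1% for Ugt1a6a, 74.6% for Ugt1a6b and 57.7% for Ugt1a1 also occur in another gene. The posterior SD of the count was 4.38% and 5.54% for Ugt1a6a, 3.65% and 3.21% for Ugt1a6b, and 4.30% and 2.24% for Ugt1a1.

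Sulfotransferases were detected as 4 genes of 4 subfamilies. Sult1a1, the main phenol sulfotransferase, was at 34.6 and 29.2 TPM, and Sult5a1 at 18.8 and 19.3 TPM. Sult4a1, known mainly from neurons, was at 6.18 and 4.20 TPM. Sult2b1, whose products include cholesterol sulfate, was at 1.5 and 2.80 TPM from 49 and 73 counts. The 8 Sult2a genes on chromosome 7 (13623967 to 14494230) had 0 counts in both libraries. SULT2A1 is the enzyme that makes dehydroepiandrosterone sulfate in the human adrenal gland. The same held for Sult1e1, the estrogen sulfotransferase, and for the other 4 undetected Sult1 genes, both Sult3 genes and both Sult6 genes. A count of 0 allows up to 3 counts, or 0.0630 CPM (counts scaled to a fixed library total) in replicate 1 and 0.0567 CPM in replicate 2, for counting error only.

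Transcripts with a retained intron held 60.3% and 47.9% of the TPM of Sult5a1, but 35.1% and 28.1% of its expected counts. In Sult2b1, transcripts absent from the annotation used for types held 8.67% and 40.7% of the TPM, so it is not known whether they are coding. Of the 25 detected genes, 16 have more than 1 annotated transcript, and the leading transcript by TPM was the same in both libraries for 13 of them. It held over 90% in both for 8. The genes with different leaders by TPM were Gstm1, Mgst2 and Sult5a1. By expected counts the leader was the same in both libraries for all 16. In Gstm1, transcripts Gstm1-203 (50.2% in replicate 1) and Gstm1-201 (52.4% in replicate 2) were close to equal, and by expected counts Gstm1-201 led in both.

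Replicate 1 was then compared with replicate 2. With 1 library against 1, the exact binomial test speaks of the reads in these libraries alone, not of conditions. Of the 30 genes tested, 1 passed an adjusted p of 0.05 with at least a 2-fold difference, Ugt1a1, which was higher in replicate 2. Over all 15814 genes tested, 6.92% were called, with 4.37% higher in replicate 1 and 2.55% higher in replicate 2. Without a minimum fold, 8 transferase genes were higher in replicate 2 and 7 in replicate 1, while 15 missed the threshold. The share of all genes at that rule was 58.3%, with 29.2% higher in replicate 1 and 29% higher in replicate 2. This split depends on the scaling: with libraries scaled to their spike-ins, 1 transferase gene and 1108 of all genes were higher in replicate 1 by adjusted p alone, and 18 and 10679 were higher in replicate 2. The median absolute log2 ratio was 0.20 for the 30 genes and 0.26 for all tested genes, and the median log2 ratios were 0.01 and -0.004.

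**Figure D3:**
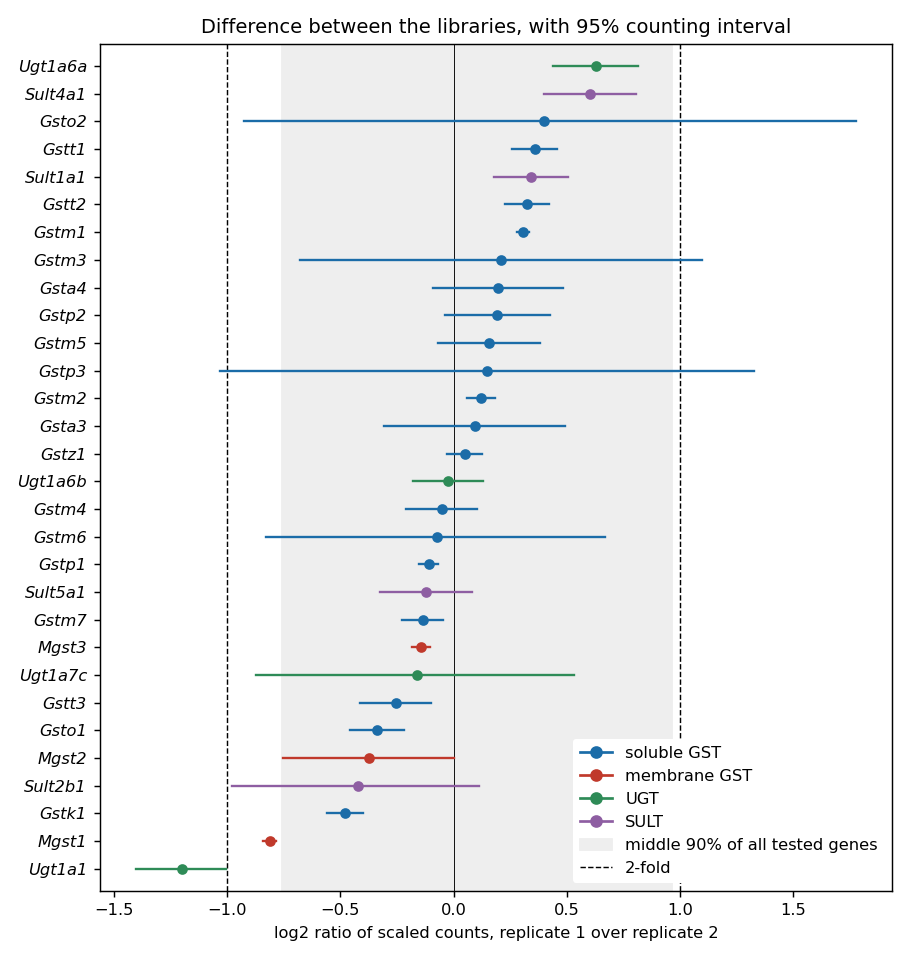
Log2 ratio of scaled counts, replicate 1 over replicate 2, for the 30 tested transferase genes with exact 95% counting intervals. Grey marks the middle 90% of all tested genes (from -0.76 to 0.97), dashed lines mark 2-fold, and the 2 genes outside the grey band are Ugt1a1 (-1.20) and Mgst1 (-0.81). At spike-in scaling 10 of the detected genes change sign, Gstm1 among them.

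Expected counts of Ugt1a1 were 287 and 732, and its log2 ratio was -1.20 (95% interval -1.41 to -1.0) with an adjusted p of 4.8e-35 by the exact binomial test with Benjamini-Hochberg adjustment. When a biological coefficient of variation of 0.2 was assumed in edgeR's exact test, the call was lost (adjusted p = 0.178). Ugt1a6a went the other way within the same locus, with 561 and 402 counts and a log2 ratio of 0.63 (0.44 to 0.82), under 2-fold. Ugt1a6b had 657 and 740 counts, a log2 ratio of -0.02 (-0.18 to 0.13). As a share of the locus, Ugt1a1 held 18.6% in replicate 1 and 38.0% in replicate 2, Ugt1a6a 36.3% and 20.9%, and Ugt1a6b 42.5% and 38.4%. The locus as a whole had 1544 and 1927 counts, a log2 ratio of -0.17 (-0.27 to -0.07), and with its genes summed no transferase was called in this test. Ugt1a6a and Ugt1a6b together had 1217 and 1143 counts, a log2 ratio of 0.24 (0.12 to 0.36). The ratio of the locus sum was thus nearer 0 than those of Ugt1a1 and Ugt1a6a.

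Of the hepatocyte markers, 8 of 8 were also called higher in replicate 2, against 2.55% of all tested genes. Their summed TPM was 6.62 and 45.1, none was at 0 in both, and albumin had 22 and 441 counts. Their part in the Ugt1a1 result was not tested.

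**Figure D4:**
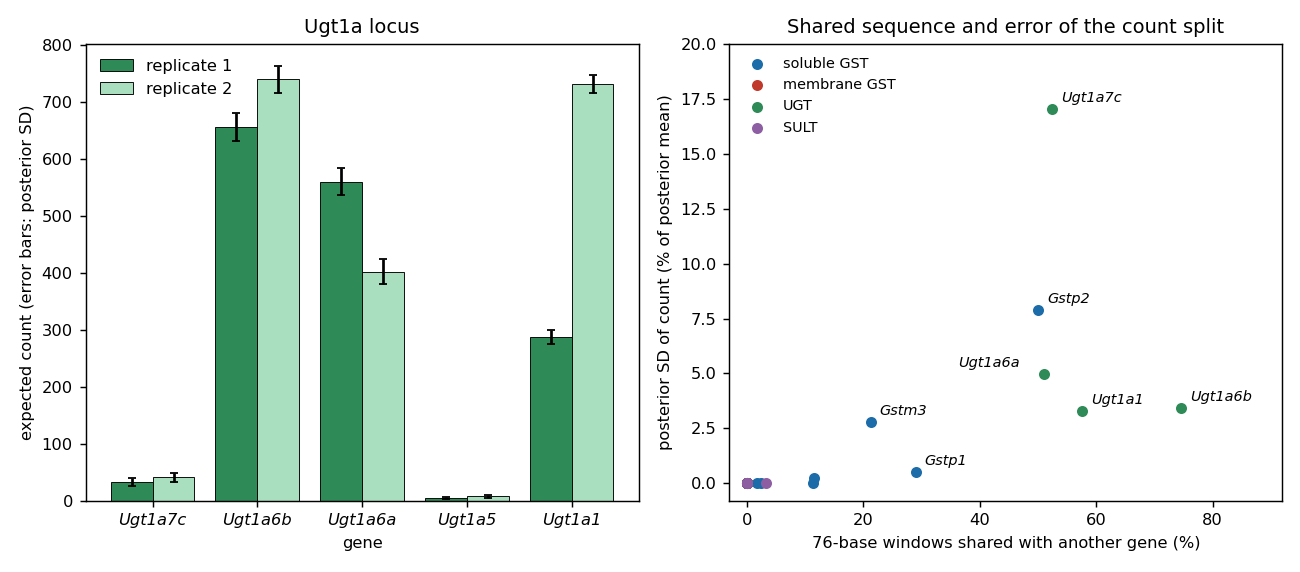
Left, expected counts of the 5 Ugt1a genes with most reads in each library, with the deposited posterior SD as error bars: Ugt1a1 has 287 counts in replicate 1 and 732 in replicate 2, and Ugt1a6a has 561 and 402. Right, posterior SD of the count (% of the posterior mean, averaged over the libraries) against the percent of 76-base windows shared with another gene, for the 30 tested genes. Those with shares under 20% lie near 0, as does Gstp1 with a share of 29.0%. Gstm3, Gstp2 and the Ugt1a genes lie higher.

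Mgst1 passed the adjusted p but not the minimum fold, with a log2 ratio of -0.81 (-0.84 to -0.79), and at spike-in scaling it reached -1.24 and was called. The 7 adrenal cortex markers were also all higher in replicate 2 by adjusted p alone, against 29% of all tested genes (67.5% at spike-in scaling). Their summed TPM was 22690 and 30670, with none at 0. All 5 erythroid markers were higher in replicate 2 by this rule too. Of the 6 chromaffin cell markers, 1 was higher in replicate 2 and 3 in replicate 1. Log2 ratios of the cortex markers ran from -0.82 for Mc2r, the corticotropin receptor, to -0.15 for Hsd3b1. The part of these markers in the Mgst1 result was not tested. Gstk1 followed with a log2 ratio of -0.48 (-0.56 to -0.40). Sult4a1 was higher in replicate 1 by 0.60 (0.40 to 0.81), but by 0.17 at spike-in scaling, where it did not pass the adjusted p. Gstm1 was higher in replicate 1 by 0.31 (0.28 to 0.33), but at spike-in scaling its ratio was -0.12. The sign also turned at spike-in scaling for Gstm2, Gstt1, Gstt2 and Sult1a1, which at TMM scaling were higher in replicate 1 by 0.12, 0.36, 0.32 and 0.34. The other 5 detected genes with positive ratios that turned had not passed the adjusted p.

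Reads were split between genes for few of the abundant members. Of the 25 detected genes, 15 share no 76-base window with another gene, and 7 share over 10% of their windows. The 7 are Ugt1a6b, Ugt1a1, Ugt1a6a, Gstp2, Gstp1 (29.0%), Gstt3 (11.5%) and Gstm1 (11.5%). Outside Gstp and Ugt1a the share was at most 11.5% in a detected gene. Fractional expected counts, which mark split reads, occurred in 14 of the 66 genes and in 8 detected ones.

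Windows of 250 bases before RefSeq start sites (GRCm38.p6) were searched on both strands for TGACNNNGC, the core of the antioxidant response element bound by NRF2, and for CAAGGNCA, the core of sites bound by the adrenal cortex factor NR5A1. A window was found for 58 of the 66 genes, of which 21 were detected. TGACNNNGC occurred in 4 of the 70 windows (5.71%), against 10.2% of all 32851 windows, and all 4 belonged to detected genes. The 4 matches are shown with 10 bases on each side, turned so that the motif, in capitals, reads 5′ to 3′.
Gsta3, chr1:21240454-21240482, plus strand: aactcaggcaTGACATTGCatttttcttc
Gstm5, chr3:107895802-107895830, plus strand: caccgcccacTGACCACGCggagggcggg
Gstm7, chr3:107931725-107931753, minus strand: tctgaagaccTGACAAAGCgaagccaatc
Mgst1, chr6:138140461-138140489, minus strand: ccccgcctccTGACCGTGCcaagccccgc
The match in Mgst1 lies 56 bases before the upstream RefSeq start, which falls among the starts of the 4 upstream transcripts. Of these, Mgst1-204 and Mgst1-205 held nearly all of the TPM, and the others at most 0.590%. The match in Gstm7 lies 129 bases before the start of Gstm7-203, which held 0.43% and 0.67% of that gene's TPM. It is downstream of the start of Gstm7-201, which held 99.6% and 98.7%, and the window before that start had no match. CAAGGNCA occurred in 4 of the 70 windows (5.71%), against 5.53% of all windows. In Gstm7 it lay in the same window as TGACNNNGC. In Mgst1 it lay in the downstream window, 155 bases before the start of transcripts that held under 1% of its TPM. No match of one motif overlapped a match of the other in the windows of detected genes. A match is a description of letters and not of binding.

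Genes of glutathione synthesis and breakdown were detected as 10 of 13, and 1 of the 12 tested was called, Slc7a11, with 2 counts in replicate 1 and 20 in replicate 2. Gclm, the modifier subunit of the enzyme of the first step of glutathione synthesis, was at 289 and 166 TPM, far above its catalytic partner Gclc at 13.4 and 14.4 TPM. Gss, which completes the tripeptide, was at 67.8 and 101 TPM, and the reductase Gsr at 19.8 and 17.7 TPM. By adjusted p alone, 5 of the 12 were higher in replicate 1 and 4 in replicate 2, against 1 and 7 at spike-in scaling. Of all tested genes, 6.92% were called. By adjusted p alone, 29.2% of them were higher in replicate 1 and 29% in replicate 2, against 7.01% and 67.5% at spike-in scaling.

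Supply of UDP-glucuronic acid was represented by 6 of 7 genes detected, and none of the 7 was called by the exact binomial test. Without a minimum fold, 2 were higher in replicate 2, and 6 at spike-in scaling. Ugdh, which makes UDP-glucuronic acid, was at 13.1 and 12.9 TPM, and Gusb, which cleaves glucuronides, at 35.9 and 41.5 TPM. Of the genes for sulfate supply and release, 12 of 14 were detected, and the sulfate carrier Slc26a2 was called higher in replicate 2, at 1.38 and 4.83 TPM. By adjusted p alone, 4 of the 14 were higher in replicate 1 and 3 in replicate 2, against 0 and 12 at spike-in scaling. For both lists, the shares over all tested genes were 29.2% and 29%, against 7.01% and 67.5% at spike-in scaling. Papss1, a synthase of the sulfate donor, was at 16.9 and 18.7 TPM, above Papss2 at 0.56 and 0.57 TPM.

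Exporters and carriers of conjugates were detected as 9 of 13, with no call among the 12 tested by the same test and 2 genes passing the adjusted p alone in each direction. At spike-in scaling 10 of the 12 were higher in replicate 2 and 0 in replicate 1, against 67.5% and 7.01% of all tested genes. Abcb1b led them at 85.5 and 86.7 TPM. The glutathione conjugate pump Abcc1 was at 35.0 and 39.0 TPM, and Abcc2, which does this in the liver canaliculus, had 7 and 14 counts. Of 12 tested relatives outside the symbol rule, 3 were called higher in replicate 1 and 0 in replicate 2. Of all tested genes, 4.37% were called higher in replicate 1 and 2.55% in replicate 2. At spike-in scaling 1 relative was called higher in replicate 1. Without the minimum fold, 5 of the 12 relatives were higher in replicate 1 and 3 in replicate 2, against 4 and 7 at spike-in scaling. For all tested genes, the shares without the minimum fold were 29.2% and 29% at TMM scaling. Ltc4s, the leukotriene C4 synthase of the Mgst family, was at 176 and 77.1 TPM, and Gdap1 had 42 and 16 counts. Ugcg had 2854 and 1567 counts but a TPM of 41.7 and 49.4, so its direction differed between counts and TPM.

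Among genes of the NRF2 pathway, a regulator of several glutathione transferases, 13 of 14 were detected. Srxn1, a reductase of oxidised peroxiredoxins, was at 322 and 618 TPM, Hmox1 at 64.3 and 41.4 TPM and Nqo1 at 1.61 and 1.52 TPM. Of the 14, 1 was called (Slc7a11), against 6.92% of all tested genes. By adjusted p alone, 3 of the 14 were higher in replicate 1 and 7 in replicate 2, against 2 and 10 at spike-in scaling. The shares of all tested genes were 29.2% and 29% by adjusted p alone, against 7.01% and 67.5% at spike-in scaling. Of 6 xenobiotic receptors 4 were detected, none of the 4 tested was called by the exact binomial test, and 2 were higher in replicate 1 by adjusted p alone (0 at spike-in scaling, with 3 higher in replicate 2). The receptors Nr1i2 and Nr1i3, which drive Ugt and Sult genes in liver, had 2 and 0 counts and 0 and 1 counts.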

How the data were processed

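Gene and transcript tables of 2 adrenal gland libraries were used. The deposited expected count estimates the read pairs of each gene and carries no normalization. The authors' TPM is scaled per length to a fixed total that includes spike-ins, and the authors' FPKM per length and fragments. The posterior SD of the count is the authors' estimate. Transcript percents were computed here from the authors' transcript values, as a transcript's part of the summed TPM or expected counts of its gene's transcripts. Per the readme deposited beside the tables, reads were aligned to mm10 transcripts of annotation M4; the quantifier was not given in the sources used here.

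Symbols, types and positions came from GENCODE M21 (GRCm38), which matched 42462 of 43346 mouse identifiers. The others held 0.112% of counts. Spike-ins (0.654% and 0.485% of counts) and 26248 rows with numeric identifiers were left out of library sizes and of the TPM totals behind the family shares. Expected counts were rounded to whole numbers, scaled with TMM factors of 1.00 and 0.999 (edgeR 4.0.16, R 4.3.3), and compared by a two-sided exact binomial test (scipy 1.17.1) over genes whose counts summed to 20 or more, with Benjamini-Hochberg adjustment. A call needed an adjusted p under 0.05 and at least 2-fold. A prior count of 0.5 was added for log2 ratios, whose 95% intervals are Clopper-Pearson. These intervals, and limits from 0 counts, hold counting error alone, as PCR copies are not separate molecules. Counts were also simulated for this comparison over 15814 genes, with counting error alone. On them the test called 94% of genes at a 2.5-fold change, 98% at 4-fold and 0.0128% of unchanged ones. The simulation held no spread between libraries, so these are not error rates of the real comparison.

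Shared sequence was counted as 76-base windows (the read length) found in a transcript of another gene. Coding sequences came from GENCODE M21 transcripts, promoter windows from RefSeq (GRCm38.p6). Sequences of CAAGGNCA matches are not reported here. The naming rule took every gene that reached 1 TPM in each library, with values for the 12 highest and for any call, and lower genes where they had 20 summed counts or stood alone in a subfamily. Other genes below 1 TPM were named after their values were seen. The genes, lists and tests were chosen with earlier results of these data known. Alternatives covered scaling, filter, fold, test, unit and each replicate left out. The mm9 contig and junction tables were not used here.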

Additional observations from a re-analysis of the deposited data

How the results depend on the processing

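The number of detected genes was 20 at 5 TPM and 29 at 0.5 TPM, against 25, and 25 to 27 with each replicate left out. As a share of expected counts, which is not per length, the 66 genes held 0.173%, soluble glutathione transferases 0.10%, membrane ones 0.0668%, UDP-glucuronosyltransferases 0.00346% and sulfotransferases 0.00300%, so the order of the last 2 families turned in the mean (1546 counts against 1557 in replicate 1, 1946 against 1446 in replicate 2). Over TPM of nuclear protein-coding genes, soluble glutathione transferases held 0.187% and sulfotransferases 0.00647%. The number of genes called was 1 at TMM, RLE and total-count scaling, 2 at spike-in scaling (Mgst1, Ugt1a1), 2 with no count filter (Ugt3a2 added), 4 at 1.5-fold (Mgst1, Sult4a1, Ugt1a6a, Ugt1a1) and 15 with no minimum fold. It was 0 in edgeR's exact test with an assumed coefficient of variation of 0.2, where 241 of all genes were called. At an unadjusted p under 0.05 in that test there were 2 of the 30 transferase genes, Mgst1 and Ugt1a1, and 1186 of all 15814 genes. The number called was also 0 with the Ugt1a locus summed (27 tested), or without genes that share over 10% of their windows (21 tested), both chosen after seeing the data. In both of these Ugt1a1 was no longer tested by itself. With a summed count of 100, 463 of all genes were called (3.49%) and Ugt1a1 stayed called. Spike-in scaling moved the median log2 ratio of all genes to -0.43, with 286 genes called higher in replicate 1 and 1305 in replicate 2, against 691 and 404. There Mgst1 was at -1.24, and the sign turned for Gstm1 (-0.12), Gstm2 (-0.31), Gstt1 (-0.071), Gstt2 (-0.11), Sult1a1 (-0.088), Gstz1 (-0.38), Gstm5 (-0.27), Gsta3 (-0.34), Gsta4 (-0.23) and Gstp2 (-0.24). Relative to that median, these lay above 0. With the fold taken from TPM, Mgst2 was at 0.37 instead of -0.37. No paired analysis was possible because there is 1 group. Counts under 20 limit what can be said of the genes at or near 0.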
